A study of Mus musculus with 5480 samples.

Results

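Early airway smooth muscle is the subtype that the authors' labels give to young muscle cells of the airway wall in the mouse lung. Its cells were compared between postnatal day 7 (P7) and postnatal day 1 (P1) in normal air. All cells with this label in the mice of those 2 groups were taken, which gave 200 cells of 286 with the label and of 5480 cells in the series. The female and male P1 mice gave 38 and 23 cells, and the female and male P7 mice gave 75 and 64 cells. The series measured single mesenchymal cells (the connective tissue, muscle and vessel-wall cells) from distal lung, sorted into plates, at several ages and, at P7, also in hyperoxia, the breathing of oxygen-enriched air. The cells of the female and male P7 hyperoxia mice (58 and 22 cells) entered the fits only to help estimate the spread between mice. Each group held 1 female and 1 male mouse. No transgene, deletion or drug is named in the labels, and the strain is not given in the sources used here. Because the tissue is distal lung, muscle of the trachea and the large bronchi may be missing from these cells.

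Airway smooth muscle wraps the conducting airways and sets their calibre by contracting. Its contractile machinery is built from smooth muscle actins, myosin and their regulators, and is switched on by serum response factor with its cofactor myocardin. Around birth the lung passes from fluid to air breathing and then begins to form alveoli, and mesenchymal cells lay down elastin at that time. Muscle and airway epithelium also exchange secreted signals of the Wnt, Hedgehog, BMP and FGF families.

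Summing reads per mouse gave 25987079 and 26496356 reads for the female and male P1 mice and 102846730 and 62487781 reads for the female and male P7 mice. All of these cells came from the mesenchymal sort, on 2 plates a mouse. Per the labels, both males were sequenced in 1 run, whereas the female P1 and female P7 mice each had a run of their own, so that in females age and run cannot be told apart. Levels below are CPM, summed read counts scaled to 1000000 reads with TMM factors, while sums over cell type marker lists are scaled without these factors. A count of 3 reads is the most that a count of 0 allows, and corresponds to 0.0292 to 0.115 CPM of the total in these mice. Reads were not marked by molecule, so counting limits and intervals cover counting error only. CPM values were not divided by gene length, and they are compared between mice and not between genes. Xist, the X-inactivation RNA, was at 158 and 239 CPM in the 2 females and at 0.0803 and 0.0160 CPM in the males.

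Smooth muscle markers were high at both ages, but the marker sums do not separate airway from vascular muscle on their own. A list of 9 smooth muscle markers, Acta2 and Myh11 among them, summed to 16838 to 23418 CPM, against 1424 to 3672 CPM in early alveolar fibroblasts and 13137 to 26879.6 CPM in vascular smooth muscle of the same mice. A list of 10 airway smooth muscle markers summed to 6017 to 8848 CPM, against 2655 to 3156 CPM in myofibroblasts and 2655 to 6235 CPM in vascular smooth muscle, where the highest sum lay above the lowest airway sum. Hhip, which encodes a Hedgehog-binding protein, was at 874 and 1022 CPM at P1 and 977 and 1440.2 CPM at P7. Vascular smooth muscle had 0 and 0 CPM at P1 and 0.0378 and 0 CPM at P7, where 3 reads correspond to 0.111 to 0.284 CPM. The 8 alveolar myofibroblast markers summed to 15928 to 19854 CPM, more than the 7511 to 9196 CPM in cells labelled myofibroblasts. Most of that sum came from Tgfbi (9182 and 14534 CPM at P1 and 9442 and 8142 CPM at P7) and Aspn (4283 and 3308 CPM at P1 and 6240.5 and 8659.9 CPM at P7). Pdgfra, which marks myofibroblasts, was at 64.1 and 77.0 CPM at P1 and 40.2 and 10.5 CPM at P7. The summed list therefore does not separate the airway label from myofibroblasts. Markers of immune cells summed to 0.264 to 10.8 CPM, of erythroid cells to 0 to 11.3 CPM, of endothelial cells to 103 to 129 CPM and of epithelial cells to 55.6 to 109 CPM. Markers of alveolar fibroblasts summed to 233 to 502 CPM. Those of adventitial fibroblasts summed to 748 and 576 CPM at P1 and 2068 and 3020.0 CPM at P7. The higher adventitial sum at P7 came mainly from Mfap5 and Col14a1, and Dcn, another adventitial marker, was at 19.7 and 37.4 CPM at P1 and 0.226 and 7.33 CPM at P7. The part of other cells in the values of Mfap5 and Col14a1 was not tested.

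The share of cells carrying the label was larger at P7 than at P1 in both sexes. It was 6.00% of all sorted cells of the female P1 mouse (95% Wilson interval 4.40 to 8.13) and 4.04% (2.70 to 5.98) of the male. At P7 it was 12.4% (9.99 to 15.2) in the female and 11.2% (8.89 to 14.1) in the male. The means were 5.02% ± 1.39 (SD, n = 2) and 11.8% ± 0.812 (SD, n = 2), a difference of 6.78 percentage points. The intervals cover the counting of cells within a mouse and not the spread between mice. With 2 mice a side an exact permutation test could not reach p under 0.05, and none was made; a share also moves with the other cells in the sort. The median number of genes per cell, with every cell thinned to 100000 reads (1 cell of each male left out), was 2833.5 and 3161.5 in the P1 mice and 3175 and 2989 in the P7 mice. The difference of 84.5 genes is smaller than the SD of 232 between the 2 P1 mice, the larger of the 2 SDs within an age. Cells with reads of both Mki67 and Top2a, genes of dividing cells, numbered 2 and 1 at P1 and 0 and 4 at P7.

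Genes with different levels at P7 and P1 were sought with edgeR's quasi-likelihood test, over 12887 genes, with terms for sex and group. No gene passed an adjusted p of 0.05 (Benjamini-Hochberg, all genes tested), which is 0% of those tested, and the smallest adjusted p was 0.157. At an unadjusted p under 0.05 there were 861 genes, of which 530 (4.11%) were higher and 331 (2.57%) were lower at P7. Both P7 mice lay above both P1 mice for 2768 genes (21.5%) and below them for 2174 (16.9%). In contrast to edgeR, the same sums gave 472 genes past an adjusted p of 0.05 in DESeq2 (309 higher, 163 lower). The mean log2 level per cell gave 54 (35 higher, 19 lower) in limma, with 47 genes common to both tools. On data simulated with the spread of these mice, 177 of 262 DESeq2 calls and 14 of 83 edgeR calls were for unaltered genes. There, edgeR recovered 5.97% of the genes altered 2-fold, 31.3% of those altered 4-fold and 66.7% of those altered 16-fold. The spread was edgeR's own estimate, and the share of false calls depends on how many genes were altered. It therefore cannot be carried over to the calls on the real data. Data for limma were simulated apart, with 4-fold changes only, and gave 4 false calls of 114. That result is not comparable with those of edgeR and DESeq2. The DESeq2 count of 472 genes is given as a value and supports no call. The fit had 2 residual degrees of freedom, and single mice moved the count: leaving out the female P1 mouse gave 15 genes and leaving out the male hyperoxia mouse gave 28. No gene below is called changed for that reason. The genes described first are the 12 on each side with the smallest unadjusted p, at least 10 CPM at 1 age, reads in at least 10% of cells of each mouse at the higher age, and no overlap between the ages. Their adjusted p in edgeR was 0.157 to 0.324. The SE given with edgeR estimates, in text and figures, was derived from the test. It is the absolute log2 change divided by the square root of the F value, and not an output of the fit.

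The 12 genes on the higher side have varied roles, and Bdnf, Rbfox1, Phactr1 and Tmeff2 among them had 5 or fewer reads at P1. Bdnf, which encodes the neurotrophin brain-derived neurotrophic factor, had 2 reads in the female and 0 in the male P1 mouse. It was at 108 and 72.7 CPM in the female and male P7 mice (log2 11.45, SE 1.25, unadjusted p = 1.22e-05). The ratio of its levels was 2425, with a counting interval of 671 to 20028. Reads of Bdnf were found in 2 of 61 P1 cells and 31 of 139 P7 cells, and in cells thinned to 100000 reads in 1.67% and 18.8% of cells. In early alveolar fibroblasts of the same mice the share with a Bdnf read was 2.65% at P1 and 2.74% at P7, with medians of 647216 and 920647 reads per cell against 737482 and 1184285 in airway muscle. The P1 share in airway cells (3.28%) was near that of the fibroblasts. The P7 share (22.3%) lay above it, but the rule of reads in at least 10% of cells fixed this in advance. Grem1, a secreted antagonist of BMP ligands, was at 0.0762 and 2.57 CPM in the female and male P1 mice and 284 and 136 CPM in the female and male P7 mice (log2 7.98, SE 1.31, unadjusted p = 0.000245). It was read in 2 of 61 P1 cells and 50 of 139 P7 cells, and in 0.274% of early alveolar fibroblasts at P7. Rbfox1, a splicing regulator best known from neurons and muscle, had 4 and 1 reads at P1 and 43.0 and 107 CPM at P7 (log2 9.46, SE 1.16, unadjusted p = 2.95e-05), with reads in 3 of 61 P1 cells and 54 of 139 P7 cells.

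Phactr1, whose product binds actin and protein phosphatase 1, had 1 and 0 reads at P1 and 39.4 and 34.1 CPM at P7. Tmeff2, a transmembrane protein with follistatin-like domains, had 0 and 1 reads at P1 and 47.9 and 52.8 CPM at P7. Reads of Phactr1 were found in 1 of 61 P1 cells and 39 of 139 P7 cells, and those of Tmeff2 in 1 of 61 P1 cells and 31 of 139 P7 cells. The ratios of levels had counting intervals of 344 to 75677 for Phactr1 and 457 to 100544 for Tmeff2, because each had 1 read at P1. Akap12, a scaffold for protein kinase A, was at 15.3 and 31.1 CPM in the female and male P1 mice and 190.2 and 226 CPM in the female and male P7 mice (log2 3.23, SE 0.429, unadjusted p = 5.55e-05). Itm2a, a membrane protein, was at 7.89 and 6.74 CPM at P1 and 87.8 and 105 CPM at P7, with both P7 mice far above both P1 mice. Akap12 and Itm2a are also read in most early alveolar fibroblasts (83.0% and 60.5% of those cells at P7). Phactr1 was read in 38.9% of those cells at P7, against 28.1% of airway cells. The summed alveolar fibroblast markers of the airway cells overlapped between the ages, but most of that sum came from Macf1. The part of other cells in the values of Phactr1, Akap12 and Itm2a was not tested.

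Tubb4a, a beta tubulin, was at 47.6 and 50.9 CPM at P1 and 234 and 261 CPM at P7 (log2 2.33, SE 0.329, unadjusted p = 8.59e-05). Prss12, a secreted serine protease, was at 42.8 and 45.1 CPM at P1 and 325 and 294 CPM at P7 and was read in 10 of 61 P1 cells and 84 of 139 P7 cells. Pde1a, a calcium- and calmodulin-dependent enzyme that breaks down cyclic nucleotides, was at 38.0 and 43.8 CPM at P1 and 219.8 and 201 CPM at P7. Col14a1, a collagen that sits on the surface of fibrils, was at 45.5 and 37.4 CPM at P1 and 259 and 207 CPM at P7. Mfap4, a microfibril-associated protein of elastic fibres, was at 742 and 449.7 CPM at P1 and 1899.7 and 2465 CPM at P7 (log2 1.93, SE 0.340, unadjusted p = 0.000403). It was read in 42 of 61 P1 cells and 132 of 139 P7 cells, and in 99.5% of early alveolar fibroblasts at P7. The part of other cells in the Mfap4 values was not tested. In the male pair, which shared a sequencing run, the log2 difference on the CPM + 1 scale was 2.34 for Tubb4a, 2.68 for Prss12, 2.17 for Pde1a, 2.44 for Col14a1 and 2.45 for Mfap4. The sign in this pair was fixed by the rule that the ages do not overlap. The sizes also entered the choice of these genes by p, so they are a description and give no separate support.

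The 12 genes on the lower side also have varied roles, and all were still read at P7. Mgp, matrix Gla protein, an inhibitor of calcification, was at 1400.2 and 1775 CPM in the female and male P1 mice and 349.7 and 298 CPM in the female and male P7 mice (log2 -2.30, SE 0.292, unadjusted p = 3.96e-05), a 4.90-fold lower mean at P7. It was read in 50 of 61 P1 cells and 50 of 139 P7 cells. Zfp36, also known as tristetraprolin, a protein that destabilises mRNAs with AU-rich elements, was at 1841 and 1838 CPM in the female and male P1 mice and 408 and 395 CPM in the female and male P7 mice (log2 -2.19, SE 0.300, unadjusted p = 6.70e-05). The mice of each age differed by little: the Zfp36 mean was 4.58-fold lower at P7, and it was still read in 87.8% of P7 cells. Socs3, an inhibitor of cytokine receptor signalling, was at 363 and 313 CPM at P1 and 86.3 and 42.6 CPM at P7. Errfi1, an inhibitor of the EGF receptor, was at 237 and 157 CPM at P1 and 37.5 and 17.9 CPM at P7. Wif1, a secreted Wnt inhibitor, was at 277 and 492 CPM at P1 and 82.4 and 85.4 CPM at P7 (log2 -2.20, SE 0.424, unadjusted p = 0.000746), and was read in 34 of 61 P1 cells and 40 of 139 P7 cells.

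Penk, the precursor of enkephalins, was at 257 and 180.4 CPM at P1 and 20.0 and 34.7 CPM at P7, an 8.01-fold lower mean at P7. Ednrb, the endothelin B receptor, was at 676 and 1389.7 CPM at P1 and 245 and 414 CPM at P7 (log2 -1.61, SE 0.280, unadjusted p = 0.000370). Ednra, the endothelin A receptor, was at 377 and 169.9 CPM at P1 and 294 and 353 CPM at P7 and overlapped between the ages. Sdc4, a cell surface heparan sulphate proteoglycan, was at 690.2 and 728 CPM at P1 and 170.2 and 275 CPM at P7. Gem, a small GTPase that restrains voltage-gated calcium channels, was at 1017 and 937 CPM at P1 and 338 and 369 CPM at P7. Ttyh2, a membrane protein, was at 111 and 162 CPM at P1 and 26.5 and 14.3 CPM at P7. In the male pair of the shared run the log2 difference was -2.57 for Mgp, -2.21 for Zfp36, -2.51 for Wif1, -2.35 for Penk and -1.74 for Ednrb. As on the higher side, signs and sizes in this pair entered the choice of the genes and are a description only.

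**Figure D1:**
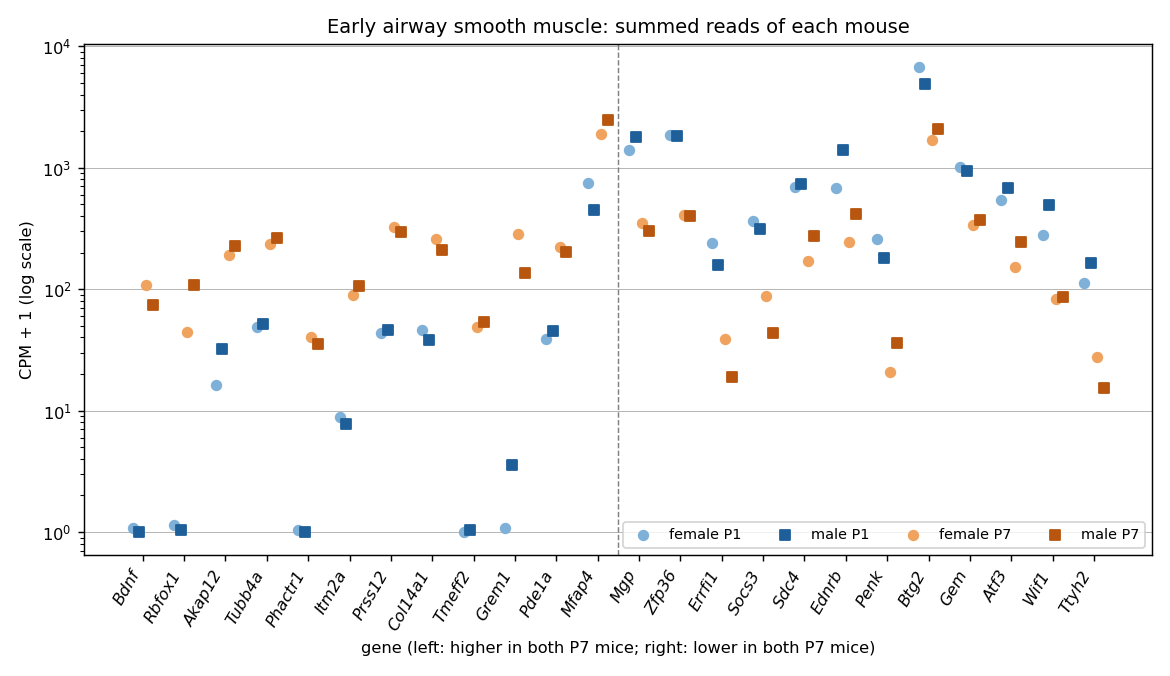
Levels of the 24 genes in the summed reads of each mouse, as CPM + 1 on a log axis, with circles for females and squares for males, blue for P1 and orange for P7. The 12 genes on the left are higher in both P7 mice and the 12 on the right are lower in both, and Bdnf, Rbfox1, Phactr1 and Tmeff2 lie near the bottom of the axis at P1.

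Immediate early genes, which code mostly for transcription factors switched on within minutes of a stimulus, together with heat shock genes formed the list with the most members lower at P7. Of 22 listed genes, all were tested, and 10 had an unadjusted p under 0.05 with lower values at P7, against 2.57% of all genes. None had one with higher values. The list was chosen with earlier results of these data known, and Zfp36, Btg2 and Atf3 were already among the named genes. Its counts are therefore a description and not a test, and the same holds for the lists that follow. For 16 of the 22 both P7 mice lay below both P1 mice (16.9% of all genes), and for 1, Dusp1, both lay above (21.5% of all genes). The median log2 change of the list was -0.98, against 0.10 for all genes tested. Fos was at 8178 and 8889 CPM in the female and male P1 mice and 5519 and 3473 CPM in the female and male P7 mice (log2 -0.93, SE 0.309, unadjusted p = 0.0157). Its partner Jun was at 1015 and 790.3 CPM at P1 and 326 and 379.6 CPM at P7. Junb was at 2712 and 2199 CPM at P1 and 1041 and 812 CPM at P7, so these factors were lower in both P7 mice. Ier2 was at 1747 and 1997 CPM at P1 and 807 and 587 CPM at P7 (log2 -1.45, SE 0.293, unadjusted p = 0.000980). Btg2, an inhibitor of proliferation, was at 6712 and 4924 CPM in the female and male P1 mice and 1674 and 2089 CPM in the female and male P7 mice (log2 -1.63, SE 0.294, unadjusted p = 0.000467). Atf3, a stress-induced transcription factor, was at 540.5 and 678 CPM at P1 and 152 and 242 CPM at P7 (log2 -1.65, unadjusted p = 0.000667). Nr4a1, an orphan nuclear receptor, was at 3925 and 3429 CPM at P1 and 2620.3 and 2107 CPM at P7. Its relative Nr4a2 was at 451 and 481 CPM at P1 and 208 and 339.7 CPM at P7. Egr1 was at 2921 and 2985 CPM at P1 and 1740.0 and 2242 CPM at P7 (log2 -0.58, unadjusted p = 0.0527), with no overlap between the ages. By contrast, Fosb, Egr2, Egr3, Fosl1 and Hspa1a overlapped.

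The list was also summed on each plate, although plates of 1 mouse are not separate replicates. As a share of all reads, the list took 3.45% and 3.49% on the plates of the female P1 mouse and 2.73% and 3.58% on those of the male. It took 2.18% and 1.46% on the plates of the female P7 mouse and 1.25% and 1.83% on those of the male, so that the 4 P1 plates lay above the 4 P7 plates. In single cells the median share was 3.32% and 2.75% at P1 and 1.84% and 1.64% at P7. Cells varied widely within a mouse: the 10th and 90th percentiles were 0.883% and 5.17% in the female P1 mouse and 0.281% and 3.03% in the male P7 mouse. In the male pair of the shared run the median log2 change of the list was -1.00 and 19 of 22 genes were lower, and in the female pair it was -0.97 with 18 of 22 lower. Immediate early genes are also known to respond to tissue dissociation, and its part in these values was not tested.

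Promoter stretches of 3 of these genes are shown because these genes were lower together and because they hold the letters of the cyclic AMP response element, the binding sequence of CREB and ATF factors. Each is the 200 bases before the transcription start, 5′ to 3′ on the gene's strand, from RefSeq on GRCm38.p6, with TGACGT or its reverse complement ACGTCA in capitals, including where the 2 overlap as TGACGTCA. Btg2 lies at chr1:134079156-134079355, minus strand, Atf3 at chr1:191183334-191183533, minus strand, and Fos at chr12:85473690-85473889, plus strand.
Btg2: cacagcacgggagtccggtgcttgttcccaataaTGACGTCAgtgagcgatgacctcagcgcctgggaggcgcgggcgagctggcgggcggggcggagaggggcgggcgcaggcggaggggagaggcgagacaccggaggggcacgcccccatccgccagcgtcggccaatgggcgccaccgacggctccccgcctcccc
Atf3: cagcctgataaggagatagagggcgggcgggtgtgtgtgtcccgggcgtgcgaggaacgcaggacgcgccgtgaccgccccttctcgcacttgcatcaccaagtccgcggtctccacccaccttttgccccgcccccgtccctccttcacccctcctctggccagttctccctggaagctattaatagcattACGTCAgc
Fos: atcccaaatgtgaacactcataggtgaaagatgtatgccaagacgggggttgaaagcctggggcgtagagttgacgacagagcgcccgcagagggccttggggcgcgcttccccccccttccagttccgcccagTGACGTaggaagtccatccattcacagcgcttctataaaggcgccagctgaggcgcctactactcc
The capitals begin 166 bases before the start in Btg2, 8 in Atf3 and 66 in Fos. Of the 22 listed genes 18 had an entry, and 5 of the 18 (27.8%; Atf3, Btg2, Dusp1, Egr2 and Fos) held TGACGT on either strand in the 250 bases before a start. The same letters stood in 2125 of 32851 promoter entries of that length (6.47%), and in 11.7% of the 9842 tested genes with an entry. A match of letters is a description and not a binding site, and among the 5 genes Dusp1 was not lower and Egr2 overlapped between the ages.

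Elastic fibre genes included several that were higher in both P7 mice, among them elastin. Of 17 genes tested, 6 had an unadjusted p under 0.05 with higher values at P7 (Eln, Fbln2, Fbln5, Mfap4, Mfap5 and Ltbp2), against 4.11% of all genes, and 1 had lower values (Ltbp1), against 2.57%. Both P7 mice lay above both P1 mice for 10 of 17 genes, against 21.5% of all genes, and below for 2, against 16.9%. The median log2 change was 0.66. This list was also chosen with earlier results known and holds Mfap4, a named gene, so its counts are a description. Eln, elastin itself, was at 1181 and 1082 CPM in the female and male P1 mice and 3100.5 and 2589.5 CPM in the female and male P7 mice (log2 1.33, SE 0.265, unadjusted p = 0.000924), so the P7 mean was 2.51-fold higher. Fbln5, which tethers elastin to cells and microfibrils, was at 34.8 and 22.1 CPM at P1 and 203 and 119 CPM at P7 (log2 2.49, SE 0.489, unadjusted p = 0.000830). Mfap5, a microfibril glycoprotein, was at 400.3 and 38.7 CPM at P1 and 1439 and 2452 CPM at P7, and the P1 mice differed widely from each other. Mfap5 is also an adventitial fibroblast marker. Ltbp2 and Ltbp1, 2 microfibril proteins, went opposite ways. Ltbp2 was at 769 and 1049 CPM at P1 and 1650.5 and 1346 CPM at P7. Ltbp1, which binds latent TGF-beta, was at 369.8 and 463 CPM at P1 and 189.8 and 291 CPM at P7. Mfap2, a core microfibril protein, was at 1934 and 2094 CPM at P1 and 2141 and 1803 CPM at P7 and overlapped. Fbln2 had no read in the P1 mice and was read mainly in the female P7 mouse, at 13.6 CPM against 0.0479 CPM in the male.

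The list took 0.712% and 0.732% of reads on the plates of the female P1 mouse and 0.734% and 0.606% on those of the male. On the P7 plates it took 1.44% and 1.17% in the female and 1.31% and 1.31% in the male, above each P1 plate. In the male pair, however, the median log2 change over the 17 genes was 0.07 with 10 higher and 7 lower, and in the female pair it was 0.65 with 14 higher and 3 lower. Over all genes tested the median was 0.04 in each pair, so the list as a whole stood apart in the female pair and hardly in the male pair. In the males the larger share of reads thus rested on few genes, mainly Mfap5 (38.7 to 2452 CPM), Mfap4 (449.7 to 2465 CPM) and Eln (1082 to 2589.5 CPM). Fibrillar collagens differed less: Col1a1 was at 2323 and 2713 CPM at P1 and 2580.2 and 2325 CPM at P7 and overlapped. Col1a2 was at 1672 and 1935 CPM at P1 and 2683 and 2365 CPM at P7. Col3a1 was at 2193 and 2320.2 CPM at P1 and 3368 and 3112 CPM at P7. Of 20 collagen and collagen enzyme genes tested, 1 was higher and 1 lower at an unadjusted p under 0.05, and the list median was -0.03. The higher gene was Plod2, a lysyl hydroxylase (17.3 and 10.8 CPM at P1 and 57.3 and 47.5 CPM at P7). The lower gene was P4ha2, a prolyl hydroxylase subunit (177 and 196 CPM at P1 and 56.8 and 117 CPM at P7). Postn, which encodes the matrix protein periostin and is on the pericyte marker list, was at 417 and 524 CPM at P1 and 1677 and 1164 CPM at P7 (log2 1.61, unadjusted p = 0.00113). Among 22 basement membrane and integrin genes, 0 were higher and 1 was lower, Itga5, a fibronectin receptor subunit, at 145 and 175 CPM at P1 and 91.0 and 33.7 CPM at P7.

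**Figure D2:**
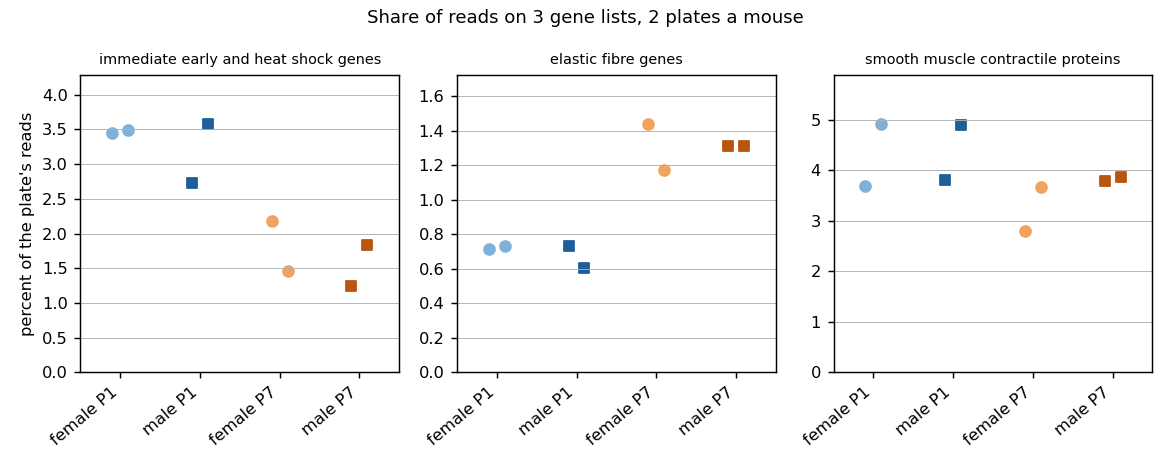
Share of reads on 3 gene lists for each plate, in percent, with 2 plates a mouse side by side and an axis from 0. The 4 P1 plates lie above the 4 P7 plates for immediate early and heat shock genes and below them for elastic fibre genes, whereas the plates overlap for contractile proteins.

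Genes of the contractile apparatus were somewhat lower in both P7 mice when summed per mouse, with overlap between plates. The 26 genes summed to 41082 and 44039 CPM at P1 and 30632 and 38290.1 CPM at P7. Of 26 genes tested, 4 had an unadjusted p under 0.05 and all 4 were lower at P7 (2.57% of all genes): Tagln, Smtn, Des and Csrp1. Both P7 mice lay below both P1 mice for 14 of 26 genes (16.9% of all genes) and above for 4 (21.5%), with a median log2 change of -0.30. Des, the intermediate filament protein desmin, was at 1048 and 1503 CPM in the female and male P1 mice and 673 and 512 CPM in the female and male P7 mice (log2 -1.13, SE 0.328, unadjusted p = 0.00839). Tagln, the actin-binding protein transgelin, was at 670.1 and 786 CPM at P1 and 432 and 444 CPM at P7 (log2 -0.73, unadjusted p = 0.0264). Smtn, smoothelin, was at 288 and 318 CPM at P1 and 179 and 177 CPM at P7. Acta2, smooth muscle alpha actin, was at 12530.5 and 13369 CPM in the female and male P1 mice and 9332 and 11789.8 CPM in the female and male P7 mice (log2 -0.30, unadjusted p = 0.293). Actg2, the enteric gamma actin, was at 4640.2 and 5768 CPM at P1 and 3078 and 4156 CPM at P7 (log2 -0.53, unadjusted p = 0.133). Myh11, the smooth muscle myosin heavy chain, was at 1281 and 1417 CPM at P1 and 853 and 1039 CPM at P7 (log2 -0.52, unadjusted p = 0.0795). Myl9, its regulatory light chain, overlapped, at 4369 and 4228 CPM at P1 and 3468 and 5244 CPM at P7. So did Pdlim3, at 2291 and 3317 CPM at P1 and 2553 and 2206 CPM at P7. The list took 3.69% and 4.91% of reads on the plates of the female P1 mouse and 3.81% and 4.89% on those of the male. It took 2.79% and 3.67% in the female P7 mouse and 3.78% and 3.87% in the male P7 mouse, so that plates of the 2 ages overlapped. In single cells the medians overlapped too, at 3.16% and 3.76% at P1 and 3.35% and 3.55% at P7.

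Among 17 regulators of the contractile programme, 2 were higher and 1 was lower at an unadjusted p under 0.05. Myocd, the cofactor myocardin, was at 469 and 362 CPM at P1 and 731 and 661 CPM at P7 (log2 0.76, SE 0.269, unadjusted p = 0.0220). It was thus higher in both P7 mice, unlike most contractile genes. Prrx1, a homeobox factor, was at 1.37 and 2.09 CPM at P1 and 31.5 and 14.2 CPM at P7. The lower gene was Klf2, at 86.2 and 158 CPM at P1 and 34.8 and 4.23 CPM at P7. Foxf1, a Hedgehog-responsive factor of lung mesenchyme, was at 398 and 579 CPM at P1 and 394 and 278 CPM at P7. Gata5 was at 152 and 128 CPM at P1 and 152 and 254 CPM at P7. Of 17 listed sarcomere genes of heart and skeletal muscle 9 were tested, and Tnnt3, a skeletal troponin T, was lower, at 78.3 and 26.2 CPM at P1 and 2.67 and 1.37 CPM at P7 (log2 -4.62, unadjusted p = 0.00416). Actc1, cardiac alpha actin, varied between mice, at 282 and 278 CPM at P1 and 311 and 1160.2 CPM at P7.

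The shares of all genes at an unadjusted p under 0.05, 4.11% higher and 2.57% lower, are the background for the counts in this and the following lists. Of 22 ion channel and calcium handling genes, 3 were higher and 1 lower at an unadjusted p under 0.05. Kcnma1 and Kcnmb1, the pore and the beta subunit of the large-conductance calcium-activated potassium channel, were both higher at P7. Kcnma1 was at 75.9 and 69.8 CPM at P1 and 157 and 205 CPM at P7 (log2 1.31, SE 0.362, unadjusted p = 0.00632). Kcnmb1 was at 9.64 and 7.70 CPM at P1 and 58.7 and 65.1 CPM at P7 (log2 2.82, SE 0.794, unadjusted p = 0.00701). Cacna1c, the pore of the L-type calcium channel, was at 73.7 and 41.1 CPM at P1 and 109.6 and 134 CPM at P7 (log2 1.11, unadjusted p = 0.0433). Lower was Abcc9, the sulphonylurea receptor subunit of ATP-sensitive potassium channels, at 137 and 147 CPM at P1 and 40.8 and 83.2 CPM at P7 (log2 -1.26, unadjusted p = 0.0283). Its pore Kcnj8 was at 801 and 893 CPM at P1 and 595 and 603 CPM at P7 (log2 -0.50, unadjusted p = 0.0927). Kcnk3 and Atp2a2, a leak potassium channel and the calcium pump of the endoplasmic reticulum, overlapped between the ages. The median of the list was 0.08.

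Of 19 tone receptor and cyclic nucleotide genes tested, 1 was higher and 2 were lower. Rgs5, which shortens G protein signalling, was at 79.0 and 137 CPM at P1 and 205 and 272 CPM at P7 (log2 1.18, unadjusted p = 0.00658). Ednrb, described above, was among the lower genes. Rgs2 overlapped, at 756 and 1465 CPM at P1 and 814 and 897 CPM at P7. Pde5a also overlapped, at 250.2 and 535 CPM at P1 and 409 and 284 CPM at P7.

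Secreted signals and their modulators differed gene by gene rather than as pathways. In the BMP and TGF-beta list 3 of 26 genes were higher and 1 was lower at an unadjusted p under 0.05. Besides Grem1, Tgfb2, a TGF-beta ligand, was at 132 and 127 CPM at P1 and 386 and 330.4 CPM at P7 (log2 1.47, SE 0.314, unadjusted p = 0.00143). Id4 was at 91.7 and 88.6 CPM at P1 and 255 and 244 CPM at P7 (log2 1.47, unadjusted p = 0.00359). Id2, another BMP-induced inhibitor of differentiation, was at 1093 and 1256 CPM at P1 and 1145 and 1515 CPM at P7. Id3 was at 876 and 924 CPM at P1 and 864 and 848 CPM at P7. In the Wnt list 2 of 24 genes were higher, Lgr6 and Rspo3, and 2 were lower, Wif1 and Notum. Lgr6, a receptor for R-spondins, was at 222 and 201 CPM at P1 and 343 and 392 CPM at P7 (log2 0.79, unadjusted p = 0.0362). Notum, an enzyme that inactivates Wnt ligands, was at 85.6 and 84.1 CPM at P1 and 18.8 and 17.8 CPM at P7 (log2 -2.22, unadjusted p = 0.00745), so both lower genes code for extracellular inhibitors. Rspo3 reads came mainly from the female P7 mouse, with 7.14 CPM against 0.0638 CPM in the male. Wnt5a, a Wnt ligand, was at 497 and 716 CPM at P1 and 1052 and 734 CPM at P7. Nkd1, a Wnt feedback inhibitor, was at 257 and 189 CPM at P1 and 271 and 340.4 CPM at P7.

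In the FGF and PDGF list 3 of 20 genes were higher and 1 was lower. The 3 were ligands. Fgf7 was at 81.7 and 82.2 CPM at P1 and 164 and 188 CPM at P7. Fgf18 was at 147 and 225 CPM at P1 and 355 and 318 CPM at P7. Fgf9 was at 9.07 and 0.0401 CPM at P1 and 69.6 and 105 CPM at P7 (log2 6.58, unadjusted p = 0.00841). The lower gene was Spry2, a feedback inhibitor of receptor tyrosine kinases, at 54.5 and 86.0 CPM at P1 and 14.1 and 16.4 CPM at P7 (log2 -2.14, unadjusted p = 0.00397). Of 25 neurotrophic and guidance genes, Bdnf and Ntrk3, a neurotrophin receptor (3.09 and 20.4 CPM at P1 and 82.6 and 72.5 CPM at P7), were higher. Sema3a, a repellent guidance factor (2.93 and 19.7 CPM at P1 and 0 and 0.319 CPM at P7), was lower. No gene of the Hedgehog list (13 tested) or the Notch list (9 tested) had an unadjusted p under 0.05. Ptch1, a Hedgehog receptor and target, was at 106 and 80.9 CPM at P1 and 149 and 103 CPM at P7. Notch2 was at 24.0 and 71.1 CPM at P1 and 13.6 and 17.2 CPM at P7.

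Several fetal growth genes were lower in both P7 mice. In the list of the insulin-like growth factor axis and imprinted growth genes, 4 of 23 had lower values at an unadjusted p under 0.05 (Igf2, H19, Igf2bp1 and Igf2bp3) and 1, Peg3, had higher values. H19, an imprinted noncoding RNA of fetal tissue, was at 164 and 159.7 CPM in the female and male P1 mice and 8.75 and 8.24 CPM in the female and male P7 mice (log2 -4.27, SE 1.27, unadjusted p = 0.00933). Igf2, the fetal growth factor from the same imprinted locus, was at 82.0 and 29.5 CPM at P1 and 10.5 and 10.9 CPM at P7 (log2 -2.38, unadjusted p = 0.0242). Igf2bp3, an RNA-binding protein of fetal tissue, was at 37.6 and 89.3 CPM at P1 and 27.5 and 5.38 CPM at P7. Igf2bp1 was at 3.28 and 10.4 CPM at P1 and 0.0188 and 0 CPM at P7. Igf1, the postnatal growth factor, overlapped, at 1035 and 1415 CPM at P1 and 1038 and 1216 CPM at P7. The list median was -0.56, with 10 of 23 genes lower in both P7 mice (16.9% of all genes) and 4 higher in both (21.5% of all genes). Summed per mouse, the list was at 4416 and 4424 CPM at P1 and 3918 and 4089.5 CPM at P7, a small difference without overlap. Per plate it took 0.412% to 0.454% of reads at P1 and 0.345% to 0.450% at P7, with overlap.

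Glucocorticoid response genes, which adrenal steroid hormones induce, had 4 of 16 members lower at an unadjusted p under 0.05 and 1 higher (2.57% and 4.11% of all genes). Cebpd was at 433 and 188 CPM at P1 and 105 and 152 CPM at P7. Cebpb was at 69.9 and 69.0 CPM at P1 and 23.2 and 10.7 CPM at P7. Mt1, a metallothionein, was at 107 and 23.8 CPM at P1 and 8.71 and 10.7 CPM at P7, and the fourth lower gene was Errfi1. Klf15 was at 0.114 and 0 CPM at P1 and 15.6 and 3.85 CPM at P7, higher in both P7 mice. Nr3c1, the glucocorticoid receptor, was at 179 and 199 CPM at P1 and 162 and 164 CPM at P7. Several of these genes also respond to cytokines or stress, and 7 of the 16 were lower in both P7 mice (16.9% of all genes). Among 17 antigen presentation and interferon response genes, 4 were lower and 1 was higher (2.57% and 4.11% of all genes). Ifitm3, an interferon-induced membrane protein, was at 784 and 750.2 CPM at P1 and 295 and 268 CPM at P7 (log2 -1.44, unadjusted p = 0.00193). Ifitm2 was at 917 and 1013 CPM at P1 and 518 and 561 CPM at P7. Ifitm1 was at 54.5 and 42.7 CPM at P1 and 3.69 and 6.32 CPM at P7. The transcription factor Irf1 was at 282 and 285 CPM at P1 and 124 and 79.8 CPM at P7 (log2 -1.50, unadjusted p = 0.00299). The Ifitm genes, like Hspa1a and Hspa1b, have near-identical neighbours, so reads may have been split among them. Of 23 antioxidant genes, Nqo1 (12.0 and 7.78 CPM at P1 and 32.3 and 68.1 CPM at P7) and Gsta4 were higher. Gpx3, a secreted glutathione peroxidase (405 and 424 CPM at P1 and 64.4 and 51.3 CPM at P7; log2 -2.90, unadjusted p = 0.00186), and Sod1 were lower. Hoxa5, a homeobox gene needed in lung mesenchyme, was at 56.7 and 87.6 CPM at P1 and 11.8 and 19.2 CPM at P7 (log2 -2.23, unadjusted p = 0.00479), the only 1 of 13 Hox genes at an unadjusted p under 0.05.

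Cell division showed no shared direction. None of 30 S phase and mitosis genes had an unadjusted p under 0.05, and their median log2 change was 2.21 in the male pair and -0.98 in the female pair. Of 16 G1 genes, Cdkn1a, the inhibitor p21, was at 221 and 97.5 CPM at P1 and 138 and 24.3 CPM at P7, with a lower P7 value in each sex but overlapping ages. None of 17 glycolysis genes had an unadjusted p under 0.05, with a median of -0.03; Ldha was at 743 and 577 CPM at P1 and 691 and 733 CPM at P7.

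**Figure D3:**
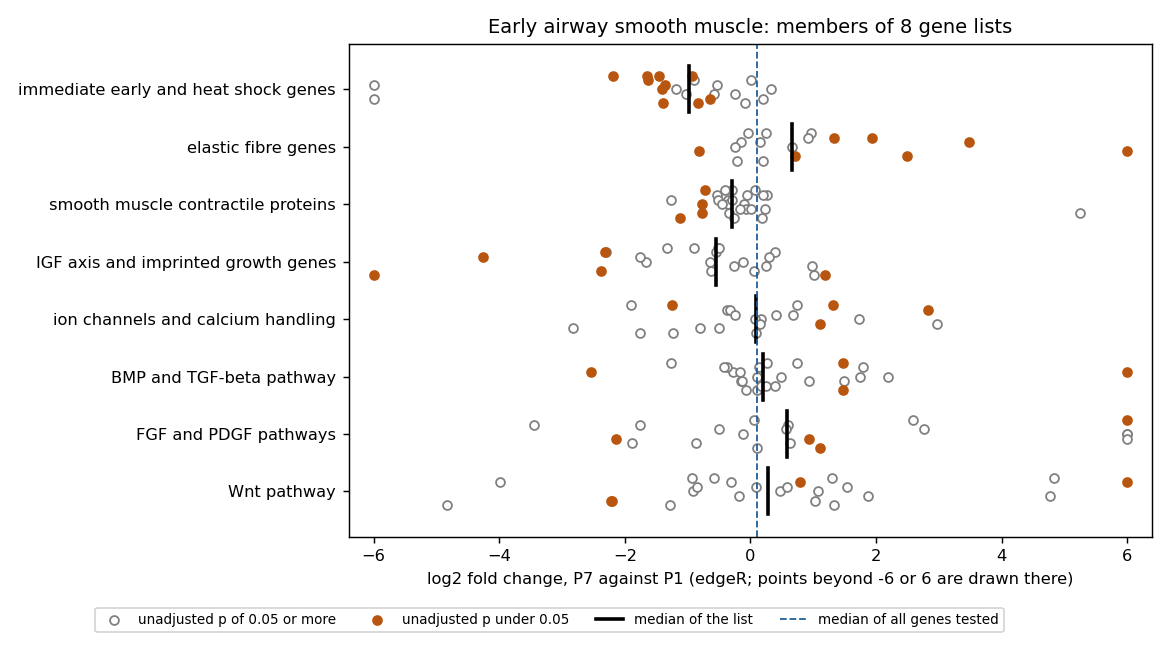
Log2 fold change at P7 against P1 for each tested member of 8 gene lists, with filled points for an unadjusted p under 0.05, a black bar for the median of the list and a dashed line for the median of all genes tested (0.10). Filled points lie to the left for immediate early and heat shock genes and mostly to the right for elastic fibre genes.

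Myofibroblasts (410 cells in the same 4 mice) and vascular smooth muscle (89 cells), the contractile cells of the alveolar and the vessel wall, served to ask whether a difference was particular to airway muscle. The test was the difference of the age effect between 2 classes, with the mouse as a block. No gene passed an adjusted p of 0.05 against either class, of 14244 and 13823 genes tested, and 812 (5.7%) and 704 (5.09%) had an unadjusted p under 0.05. DESeq2 gave 426 and 573 genes past an adjusted p of 0.05 in the same comparisons, with the same reservation, although it was not simulated for them. Against myofibroblasts, leaving out the female P1 mouse gave 89 genes in edgeR, and against vascular muscle 3. All 3 classes came from the same mice. Some cells of these mice came from other sorts and runs, and whether the other classes held such cells was not checked. The age comparison within each of the other classes also had no gene past the threshold, of 13380 and 11834 tested, with 1072 and 604 at an unadjusted p under 0.05.

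Early response genes were lower at P7 in all 3 classes. The median log2 change of the immediate early and heat shock list was -0.98 in airway muscle, -0.66 in myofibroblasts and -1.24 in vascular muscle. At an unadjusted p under 0.05, 10 of 22, 7 of 21 and 9 of 22 tested genes of the list were lower. Over all genes and in either direction, 861 of 12887, 1072 of 13380 and 604 of 11834 had such a p. None of the 22 genes had an unadjusted p under 0.05 in the test between classes, against either class, although a p above the threshold does not show equal effects. Zfp36, for example, was at 1048 and 1069.8 CPM at P1 and 279 and 280.1 CPM at P7 in myofibroblasts. It was at 1797 and 1748 CPM at P1 and 248 and 359.9 CPM at P7 in vascular muscle. The difference of its age effect was log2 -0.28, SE 0.230, unadjusted p = 0.267 against myofibroblasts and log2 0.39, SE 0.399, unadjusted p = 0.352 against vascular muscle. Elastic fibre genes had medians of 0.66, 0.37 and 0.70 in the same order, and 4 of the 17 had an unadjusted p under 0.05 against myofibroblasts (Fbln5, Loxl2, Ltbp1 and Mfap4) and 2 against vascular muscle (Fbln5 and Ltbp1). Eln was higher at P7 in the other classes too, at 552 and 476 CPM at P1 and 2125 and 1567 CPM at P7 in myofibroblasts. In vascular muscle it was at 7669.5 and 5365 CPM at P1 and 13319 and 12366 CPM at P7. For contractile proteins the medians were -0.30, -0.03 and 0.16, and Des had the lower airway effect against both (log2 -0.88, SE 0.245, unadjusted p = 0.00753, and log2 -1.22, SE 0.489, unadjusted p = 0.0341).

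Of the 24 named genes, which had been chosen by the airway comparison, 11 had an unadjusted p under 0.05 against myofibroblasts (5.7% of all genes) and 9 against vascular muscle (5.09%). That choice enters the tested difference, raises the counts and can lower the p-values of these genes, so nothing is read from either. The values of single genes below are a description. Bdnf was already present at P1 in vascular muscle, at 223 and 29.9 CPM, and was at 87.0 and 184 CPM there at P7 (log2 11.12, SE 1.29, unadjusted p = 1.11e-05, adjusted p = 0.153). In myofibroblasts it was at 0.217 and 106 CPM at P1 and 77.2 and 82.1 CPM at P7, so that the 2 P1 mice stood far apart (log2 8.89, SE 3.11, unadjusted p = 0.0221). Phactr1 in myofibroblasts was at 53.6 and 31.6 CPM at P1 and 45.1 and 32.6 CPM at P7 (log2 11.01, SE 1.38, unadjusted p = 5.98e-05), so it was the airway cells at P1 that stood low. Itm2a was lower at P7 in vascular muscle, at 224 and 209 CPM and then 75.1 and 91.2 CPM, the reverse of airway muscle (log2 5.12, SE 0.714, unadjusted p = 4.84e-05). Mgp was lower at P7 in all 3 classes. Its estimated age effect was larger in airway muscle, the class in which it had been chosen (log2 -1.43, SE 0.272, unadjusted p = 0.000909 against myofibroblasts, and log2 -1.26, SE 0.360, unadjusted p = 0.00656 against vascular muscle). Rbfox1 was at 18.4 and 32.0 CPM at P1 and 53.6 and 44.0 CPM at P7 in myofibroblasts (log2 8.47, SE 1.50, unadjusted p = 0.000576), whereas vascular muscle had no read of it at P7, where 3 reads correspond to 0.111 to 0.113 CPM. Grem1 was higher at P7 in each class, with 15.8 and 7.75 CPM in myofibroblasts and 33.7 and 2.53 CPM in vascular muscle, against 284 and 136 CPM in airway muscle, and the age effects did not pass in the test between classes (log2 -1.88, SE 1.08, unadjusted p = 0.127, and log2 -0.28, SE 2.41, unadjusted p = 0.911). Prss12 was at 3.03 and 3.17 CPM at P1 and 86.8 and 55.7 CPM at P7 in myofibroblasts, a larger age effect than in airway muscle (log2 -1.67, SE 0.483, unadjusted p = 0.00917). Ednrb was lower at P7 in myofibroblasts by more than in airway muscle, at 630.3 and 838 CPM and then 61.9 and 108 CPM (log2 1.55, SE 0.463, unadjusted p = 0.0109).

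Fbln5 had no read at P1 in myofibroblasts, where 3 reads correspond to 0.0994 to 0.134 CPM, and 69.9 and 33.0 CPM at P7. It was at 1343 and 846 CPM at P1 and 1037 and 1354 CPM at P7 in vascular muscle, where the airway effect was larger (log2 2.35, SE 0.482, unadjusted p = 0.000839). Kcnj8 was lower at P7 by more in myofibroblasts than in airway muscle, at 423 and 496 CPM and then 58.5 and 63.2 CPM (log2 2.41, SE 0.401, unadjusted p = 0.000387). H19 in vascular muscle was still at a high level at P7, with 409 and 415 CPM at P1 and 221 and 345 CPM at P7, whereas airway muscle had 8.75 and 8.24 CPM at P7 (log2 -3.66, SE 1.15, unadjusted p = 0.0111).

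**Figure D4:**
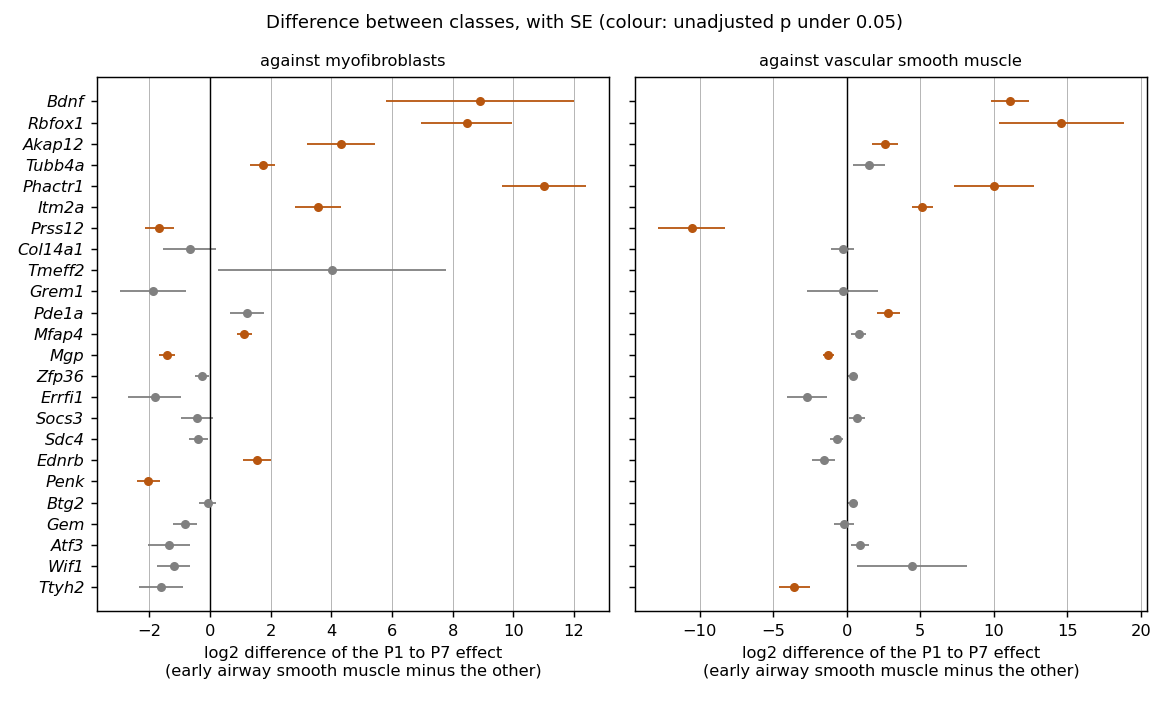
Difference of the P1 to P7 effect between early airway smooth muscle and myofibroblasts (left) or vascular smooth muscle (right), on the log2 scale with SE, for the 24 named genes. Estimates with an SE of 5 or more (Tmeff2 and Penk on the right) are not drawn; Zfp36, Btg2 and Socs3 lie within 1 log2 unit of 0 in both panels, and Bdnf, Rbfox1, Phactr1 and Itm2a lie to the right of 0 in both.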

How the data were processed

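Single cells of distal mouse lung were sequenced in plates, and the authors deposited a table of raw read counts for 18072 genes and 5480 cells, each labelled with a subtype. Per the submitters' processing notes, reads were aligned with STAR 2.5.2b and counted with HTSeq 0.10. The mouse genome build, annotation and use of strand are not given in the sources used here, and the reads carried no molecular identifiers, so amplified copies are counted and antisense or overlapping genes may share reads. Cell labels are the authors' and were not rebuilt, and no doublet caller was run on these labelled cells. Counts were summed over cells of a subtype and mouse. The main test was edgeR 4.0.16 quasi-likelihood (R 4.3.3) with TMM scaling and filterByExpr, with terms for sex and group over 6 mice, including 2 in hyperoxia, and Benjamini-Hochberg adjustment. Differences between classes used the same test with the mouse as a block. Mice are the replicates, 2 a group. DESeq2 1.42.0, limma 3.58.1 on mean log2(CPM + 1) per cell, other scaling, no filter, no sex term, 4 mice only, 3 classes in 1 fit, cells thinned to 100000 reads, cells without reads of both Mki67 and Top2a, and leaving out each mouse were the alternatives. Scripts were tested on simulated data, in which DESeq2 made mostly false calls at this size. Genes were named by a rule: the 12 largest changes each way past the threshold, with places left over going to the smallest unadjusted p under 0.05 among genes with at least 10 CPM, reads in 10% of cells of each mouse of the higher group and no overlap between the ages. None passed the threshold, so all 24 came from the second clause. Of each list, members past the threshold and the 4 most abundant were to be named. Other list members, and the genes set beside the other classes, were chosen after their values were seen. The members and lists were chosen with earlier results of these data known. Promoter sequences are from RefSeq. Some list members are counted but not reported here by name.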

Additional observations from a re-analysis of the deposited data

How the results depend on the processing

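With 2 mice a side and 2 residual degrees of freedom, the count of genes past an adjusted p of 0.05 was the result that depended most on the processing. For P7 against P1 it was 0 in edgeR and 0 with RLE size factors, without the sex term, with only the 4 mice compared and without cells holding Mki67 and Top2a reads. It was 472 in DESeq2, 54 in limma on mean log2 CPM per cell, 13 with no filter on low counts, 5 with cells thinned to the same depth and 3 with 3 classes in 1 fit, and leaving out each mouse gave 0 to 28. The 28 came without the male hyperoxia mouse and 15 without the female P1 mouse. Against myofibroblasts the count was 0, with 426 in DESeq2 and 0 to 89 when each mouse was left out. Against vascular smooth muscle it was 0, with 573 in DESeq2, 1 with no filter and 0 to 3 when each mouse was left out. On simulated data most DESeq2 calls for P7 against P1 were false, but that share cannot be carried over to the real data. The cause of the difference between the tools was not tested. Leaving out each mouse kept the difference in the label's share between 5.80 and 7.77 percentage points, and moved the difference in genes per cell between -79.5 and 248.5, which includes both signs. No paired analysis was possible because the mice of different ages are different animals with no shared number in the labels; sex entered as a term in its place. The lower number of summed reads at P1, from 61 cells, limits statements on genes with few reads. Per cell, median depth was lower at P1 in females (588268 against 1382811 reads) and higher in males (1137093 against 795643 reads).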

Other observations

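Airway smooth muscle of the female and male P21 mice (58 and 55 cells), which carries another label without the word early, and early airway smooth muscle of the hyperoxia mice gave the levels below, with no test; the P21 levels were scaled together with the other 6 libraries and are not on exactly the scale of the levels above. Several of the genes that were lower at P7 stood high again at P21. Mgp was at 9641 and 22697 CPM at P21, Zfp36 at 3719.5 and 3371 CPM, Fos at 16710.4 and 12400.1 CPM, Btg2 at 11934 and 12877 CPM and Atf3 at 4454 and 3753 CPM. Others stayed below their P1 levels: Wif1 was at 64.5 and 142 CPM, Ttyh2 at 11.3 and 3.41 CPM and H19 at 0 and 0 CPM. Of the genes that were higher at P7, Bdnf was at 0.240 and 10.7 CPM at P21, Grem1 at 27.3 and 0 CPM and Mfap4 at 287 and 142 CPM, while Rbfox1 was at 79.6 and 52.8 CPM, Tubb4a at 538 and 361 CPM and Itm2a at 83.0 and 117 CPM. Acta2 was at 1737 and 2459.9 CPM and Hhip at 6168 and 6839.7 CPM at P21. The P21 cells differ in label as well as in age, and the 2 cannot be told apart.

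In the female and male P7 hyperoxia mice, several of the genes above stood nearer to the P1 than to the P7 levels in normal air. Mgp was at 1312 and 1118 CPM there, Eln at 1166 and 1320.3 CPM, Prss12 at 88.7 and 44.2 CPM and Tmeff2 at 3.67 and 8.02 CPM. Wif1 was at 987 and 526 CPM, above its levels at both ages in normal air. Other genes stood near their P7 levels in normal air, among them Tubb4a (290 and 283 CPM) and Phactr1 (31.8 and 32.3 CPM). So did Errfi1 (36.8 and 13.9 CPM) and Penk (32.4 and 20.5 CPM). Atf3, at 51.6 and 53.8 CPM, lay below its levels at both ages. These genes were selected after their values were seen.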
